A study of Bos taurus with 60 samples.

Results

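Small RNA from the liver of 12 Angus steers was sequenced, 6 steers with low and 6 with high residual feed intake (RFI), out of 60 steers of 3 breeds in the series. RFI is the feed an animal eats above or below what its size and growth predict, so a low-RFI steer is feed-efficient and a high-RFI steer is not. The 12 steers were chosen by label alone, from breed and RFI group, which left out 8 Angus steers that carry no RFI group. They were castrated males finished on barley (75% grain and 20% silage) with 5% rumensin pellets, and gave 1 library each. The labels carry neither age nor RFI value. Per the study's methods, the 12 were taken as extremes of RFI whose miRNA expression was also like that of the rest of the breed, so the choice of steers rested partly on the measurement tested here. The labels name 6 sires, of which 2 had both low-RFI (2 steers) and high-RFI progeny (3 steers), and the other 3 high-RFI steers came from 1 sire without low-RFI progeny.

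miRNAs are short RNAs cut from hairpin precursors. A mature miRNA finds its target transcripts mainly through its seed, bases 2 to 8 from the 5′ end, and lowers their stability and translation, so miRNAs with a common seed form a family with overlapping targets. Both arms of a hairpin can yield a mature miRNA, usually with 1 arm far more abundant. Liver is dominated by few miRNAs, among them the miR-192 family and the hepatocyte miRNA miR-122, which is known for its role in cholesterol and lipid metabolism.

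The mature sequences that the results turn on were taken from the study's supplementary table of miRBase release 22 miRNAs, with the seed in capitals. The first set holds the 4 most abundant miRNAs, by mean CPM over the 12 steers with counts averaged over precursors, and bta-miR-215, which has the seed of bta-miR-192.
bta-miR-192: cUGACCUAugaauugacagccag
bta-miR-215: aUGACCUAugaauugacagaca
bta-miR-143: uGAGAUGAagcacuguagcucg
bta-miR-148a: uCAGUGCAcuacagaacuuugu
bta-miR-30a-5p: uGUAAACAuccucgacuggaagcu
The second set holds 5 miRNAs of the bovine miR-2285 family that were counted higher in low-RFI steers. The seeds of bta-miR-2285u, bta-miR-2285n, bta-miR-2285l and bta-miR-2285bq are windows, shifted along by single bases, of a shared stretch of A followed by CCCG, and bta-miR-2285l and bta-miR-2285bq have the same seed. That of bta-miR-2285ap begins further along the same stretch and ends in a G after CCCG that the others lack.
bta-miR-2285u: gAAAAACCcgaacgaacuuu
bta-miR-2285n: aAAAACCCgaaugaacuuuugg
bta-miR-2285l: aAAACCCGcaugaacuuuuuggc
bta-miR-2285bq: aAAACCCGaaugaacuucuuggc
bta-miR-2285ap: aAACCCGGaugaacuuuuuggc
The third set holds the other 4 miRNAs called between the groups, with the opposite arm of the hairpin where one was counted enough to be compared.
bta-miR-24: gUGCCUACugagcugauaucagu
bta-miR-24-3p: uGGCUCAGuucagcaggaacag
bta-miR-424-3p: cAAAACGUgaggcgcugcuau
bta-miR-424-5p: cAGCAGCAauucauguuuuga
bta-miR-507-3p: aUUGGCAUgucuuggaaugaa
bta-miR-11985: cCCACCGCucuccucccgcc

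Counts of a mature miRNA were averaged over its precursors. They summed to 2479723 to 4151913 per low-RFI steer (median 3668758) and to 3174687 to 5703119 per high-RFI steer (median 4351134), a difference with an exact permutation p of 0.141, two-sided. At these totals 3 counts, taken as the floor of a library, correspond to 0.526 to 1.21 CPM (counts scaled to equal library totals). PCR copies of 1 molecule cannot be recognised in these counts, so the floor describes counting error alone. Between 478 and 544 miRNAs had any count in a steer. The median correlation of log2 CPM of a steer with the other 11 ran from 0.987 to 0.990. It rests mainly on the wide range of levels across miRNAs, so it cannot show whether a library stands apart. A miRNA was tested at 1 CPM or more in at least 6 of the 12 steers, which 373 miRNAs met. Fold changes are given as log2 of low-RFI over high-RFI, from edgeR's quasi-likelihood test with TMM normalization, with Benjamini-Hochberg adjustment over the 373. Levels are TMM-normalised CPM.

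The abundant liver miRNAs had nearly the same level in efficient and inefficient steers. The 20 most abundant held 90.2% of all counts. None of them had an unadjusted p under 0.05, and their log2 fold changes ran from -0.17 for bta-miR-143 to 0.35 for bta-miR-486, with a median of 0.013 beside 0.0092 over all 373. For 19 of the 20 the whole 95% interval lay within a 1.5-fold change either way.

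**Figure D1:**
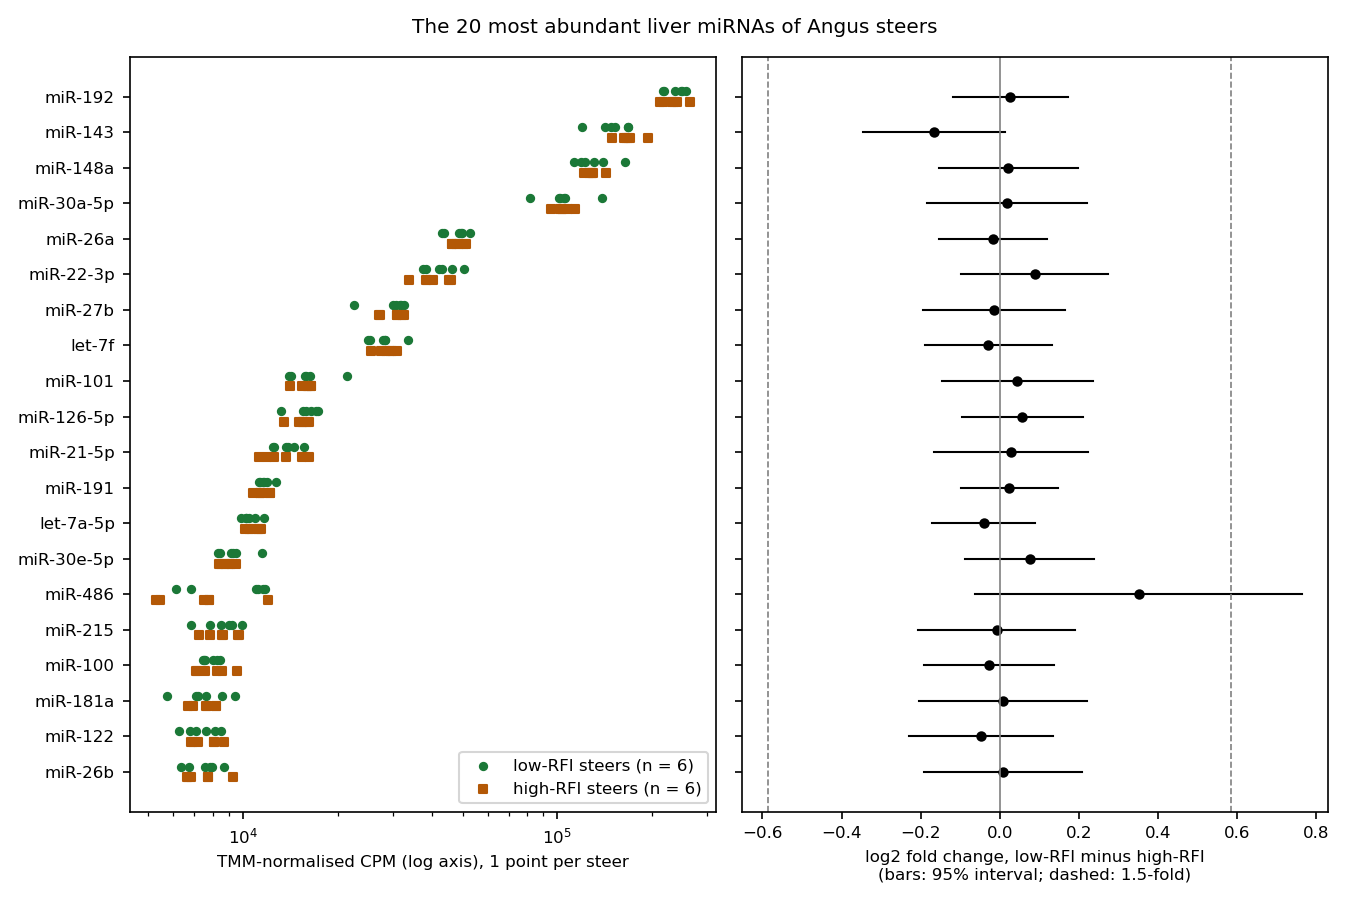
CPM of the 20 most abundant miRNAs in each steer (left, log axis, 1 point per steer, 6 steers per group) and the log2 fold change of low-RFI over high-RFI with its 95% interval (right, dashed lines at 1.5-fold). The groups overlap for each of the 20, and the interval of miR-486 is the one that reaches beyond 1.5-fold.

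bta-miR-192 alone held 23.8% ± 0.983 of the counts in low-RFI steers and 23.2% ± 1.29 in high-RFI steers (SD over 6 steers each). Its log2 fold change was 0.027 with a 95% interval of -0.12 to 0.17. bta-miR-215, which shares its seed, had a log2 fold change of -0.0078 (-0.21 to 0.19), and bta-miR-194, cut from the same transcripts in mammals, had 0.089 (-0.068 to 0.25). The 95% intervals of all 3 lay within a 1.5-fold change.

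bta-miR-143 is known from smooth muscle and from insulin signalling in mouse liver. Its share was 15% ± 1.36 in low-RFI and 16.7% ± 1.1 in high-RFI steers (SD over 6 steers each), and 5 of the 6 high-RFI steers lay above the low-RFI median. The groups overlapped, and its log2 fold change of -0.17 (-0.35 to 0.013) had an unadjusted p of 0.0664 and an adjusted p of 0.969. Without low-RFI steer 6 it was -0.23 with an unadjusted p of 0.0234, and without high-RFI steer 4 -0.20 with 0.0372. bta-miR-148a, a regulator of the LDL receptor, stood at 13.1% ± 1.21 and 12.9% ± 0.684 (SD over 6 steers each), for which edgeR gave a log2 fold change of 0.021 (-0.15 to 0.20). bta-miR-30a-5p stood at 10.6% ± 1.36 and 10.4% ± 0.74 (SD over 6 steers each), for which edgeR gave a log2 fold change of 0.018 (-0.18 to 0.22).

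The next in abundance kept to the same narrow range. bta-miR-26a, a regulator of glucose and lipid metabolism in mouse liver, had a log2 fold change of -0.018 (-0.15 to 0.12), and bta-miR-22-3p one of 0.089 (-0.10 to 0.27). bta-miR-122, the marker of hepatocytes, had 6233, 7359 and 8502 CPM as lowest, median and highest value in low-RFI steers. In high-RFI steers these were 6847, 7635 and 8688 CPM. The ranges overlapped, with a log2 fold change of -0.047 (-0.23 to 0.13). In order of abundance bta-miR-122 was 19 of the 20 here, far below bta-miR-192.

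bta-miR-486, known for its abundance in red blood cells, was the exception in width. The lowest, median and highest values were 6109, 11072 and 11782 CPM in low-RFI and 5291, 7642 and 12020 CPM in high-RFI steers. In these steers 4 of the low-RFI group and high-RFI steer 4 lay between 10980 and 12020 CPM, and the other 7 between 5291 and 7813 CPM. The log2 fold change was 0.35 (-0.062 to 0.76), with an adjusted p of 0.969, and without high-RFI steer 4 it was 0.52 with an unadjusted p of 0.00801. The unadjusted p of bta-miR-486 was under 0.05 in 3 of the 12 fits without 1 steer, those without high-RFI steer 4, low-RFI steer 1 or low-RFI steer 3. The other erythroid miRNAs went the same way without passing the test, bta-miR-451 at 0.27 (-0.15 to 0.69) and bta-miR-144 at 0.26 (-0.25 to 0.78). The 3 erythroid miRNAs together ran from 6914 to 12728 CPM in low-RFI and from 5650 to 12942 CPM in high-RFI steers. Blood left in the tissue and expression in liver cells cannot be told apart in bulk tissue, nor can the number of cells of a type and the RNA per cell.

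Across all 373 miRNAs 9 were called by the study's rule, an unadjusted p under 0.05 with a fold change above 1.5, which is 2.41% of those tested. In low-RFI steers 6 stood higher (1.61%) and 3 lower (0.804%). An unadjusted p under 0.05 was reached by 14 miRNAs (3.75%). None reached an adjusted p of 0.05, the smallest being 0.760. Of the 373, 195 had a log2 fold change above 0. In TMM-normalised CPM the steers of the groups did not overlap for 1 miRNA (0.268%), bta-miR-2285ce.

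**Figure D2:**
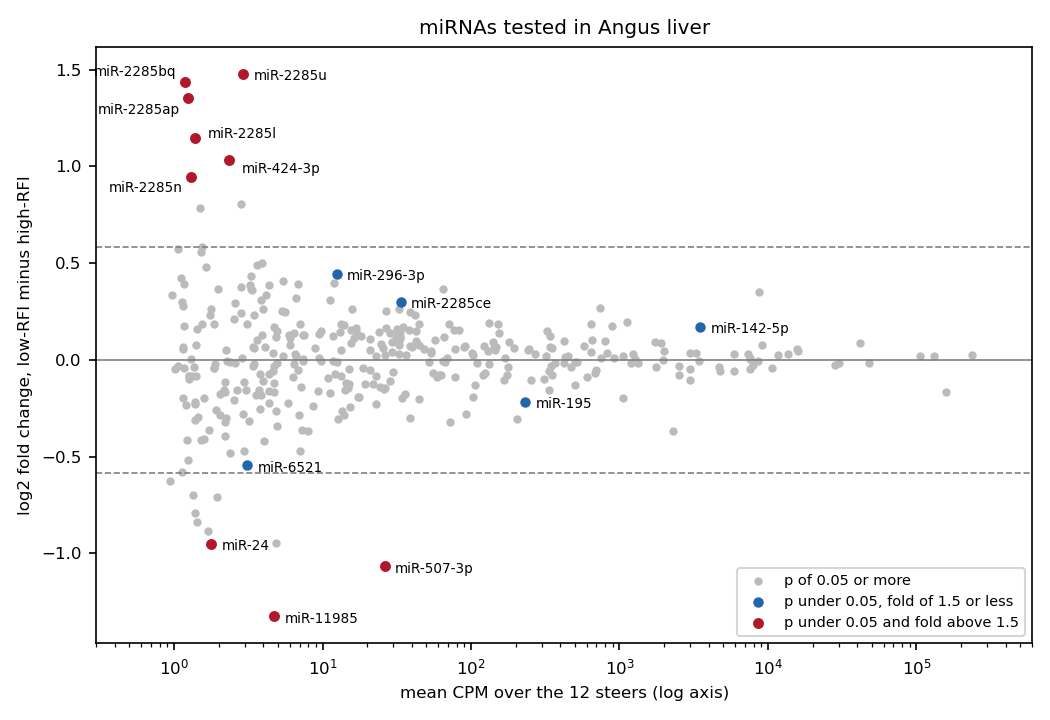
log2 fold change of low-RFI over high-RFI against mean CPM over the 12 steers (log axis) for the 373 tested miRNAs, with the 14 at an unadjusted p under 0.05 named and dashed lines at 1.5-fold. Of the 9 called miRNAs, 8 lie under 10 CPM, and the spread of fold changes narrows as the level rises.

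The calls lay at the low end of expression. Of the 107 miRNAs at 100 CPM or more, which held 99.6% of the counts, none was called and 2 had an unadjusted p under 0.05, bta-miR-142-5p and bta-miR-195. Their log2 fold changes ran from -0.37 to 0.35, and for 101 of them the 95% interval lay within a 1.5-fold change. Of the 104 at 10 to 100 CPM, 1 was called. The 162 under 10 CPM held 0.0564% of the counts and gave the other 8 calls. There the median standard error was 0.32 on the log2 scale, against 0.091 at 100 CPM or more, and for 22 of the 162 the interval lay within a 1.5-fold change. How much of this wider spread comes from counting and how much from the steers was not tested.

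The called miRNA with the smallest p was bta-miR-2285u, a member of a large miRNA family of ruminants. From lowest over median to highest, low-RFI steers had 1.52, 4.54 and 7.49 CPM and high-RFI steers 0.509, 1.48 and 3.89 CPM. The groups overlapped, but each low-RFI steer lay above the high-RFI median. The log2 fold change was 1.48 (0.52 to 2.43) with an adjusted p of 0.76, from between 2 and 30 counts per steer.

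Another 4 of the 6 miRNAs called higher belong to the same family. bta-miR-2285l had a log2 fold change of 1.15 (SE 0.40), and its lowest, median and highest values were 0.913, 1.75 and 3.84 CPM in low-RFI and 0.437, 0.735 and 1.5 CPM in high-RFI steers. bta-miR-2285bq, with the same seed, had 1.44 (SE 0.51), from 0.913, 1.33 and 3.6 CPM in low-RFI and 0, 0.58 and 1.5 CPM in high-RFI steers. bta-miR-2285ap had 1.36 (SE 0.50) and bta-miR-2285n 0.94 (SE 0.41). For each of the 4 the groups overlapped and low-RFI steer 3 was the highest of the 12.

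As the sequences above show, these 4 are near-identical: any pair of them aligned with 1 or 2 mismatches over at least 18 bases, with starts shifted by at most 2 bases. Their counts were near-equal steer by steer. bta-miR-2285l, bta-miR-2285bq and bta-miR-2285ap lay within 2 counts of each other in all 12 steers, and bta-miR-2285bq and bta-miR-2285ap within 1 count in 11 of 12. In low-RFI steer 3 the 4 had 16, 15, 15 and 15 counts, and in the other 11 steers between 0 and 8. Whether the same reads were counted under several names was not tested. bta-miR-2285u differed from bta-miR-2285n by 1 mismatch, yet its counts went apart from the others by up to 23 in a steer.

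**Figure D3:**
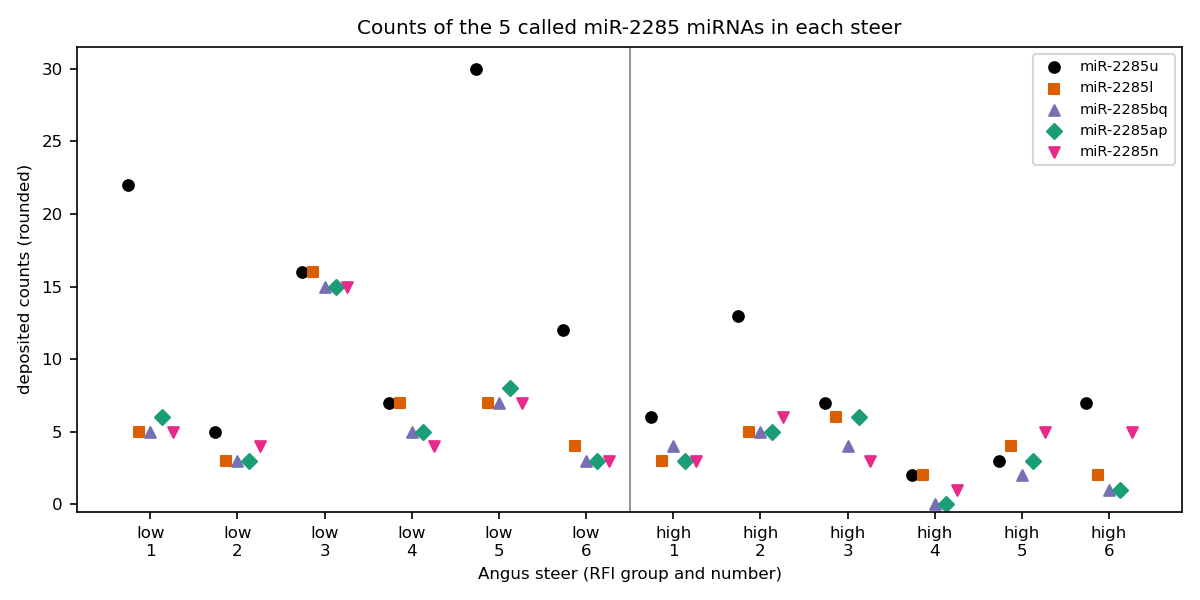
Deposited counts, averaged over precursors and rounded, of the 5 called miR-2285 miRNAs in each of the 12 steers. The markers of miR-2285l, miR-2285bq and miR-2285ap lie within 2 counts of each other in each steer, and low-RFI steer 3 stands above the other steers for miR-2285l, miR-2285bq, miR-2285ap and miR-2285n.

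Without low-RFI steer 3, 5 miRNAs in place of 9 were called, with bta-miR-2285u the one left of the family. bta-miR-2285l then had a log2 fold change of 0.79 with an unadjusted p of 0.0546, bta-miR-2285ap 1.01 with 0.0616, and bta-miR-2285n 0.56 with 0.175, while bta-miR-2285bq no longer reached 1 CPM in enough steers to be tested. In the whole family, 45 of 117 miRNAs were expressed enough to be tested. Of these, 5 were called higher and none lower, or 11.1% of the 45 against 2.41% of all tested. The median log2 fold change of the 45 was 0.024, with 25 above 0. For bta-miR-2285l, bta-miR-2285bq, bta-miR-2285ap and bta-miR-2285n the low-RFI median lay above the filter's 1 CPM and the high-RFI median below it. They passed the filter largely through the group where they were higher, so the 11.1% is not a test of the family. At 10 counts or more in every steer, 17 of the family were tested and none was called. The related miR-2284 family had 10 tested members, none with an unadjusted p under 0.05, and a median of -0.085. The summed level of the tested and untested miR-2285 miRNAs overlapped between the groups, at 719 to 912 CPM in low-RFI and 705 to 950.3 CPM in high-RFI steers.

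bta-miR-2285ce, another member at a higher level, was the one miRNA without overlap in TMM-normalised CPM. Low-RFI steers had 33.1, 38.1 and 40.1 CPM as lowest, median and highest value, and high-RFI steers 26, 31.6 and 32.9 CPM. The gap between the groups was narrow, and the log2 fold change was 0.30 (0.07 to 0.53), under the 1.5-fold limit. Its adjusted p was 0.76 by edgeR, and its exact permutation p of 0.00216 is the smallest that 924 relabelings of 12 steers can give. The same value is the share of relabelings without overlap in either direction, near the 0.268% of tested miRNAs without overlap. As CPM of library totals without TMM the groups overlapped, with low-RFI steers from 32.6 and high-RFI steers up to 34 CPM. On that scale bta-miR-24 had no overlap, with low-RFI steers up to 1.704 and high-RFI steers from 1.709 CPM. The seed of bta-miR-2285ce differs from those of the called members, and 5 other miRNAs of the family aligned to it with at most 1 mismatch.

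bta-miR-424-3p completed the miRNAs called higher. It is the minor arm of mir-424, a hairpin of the miR-15 and miR-16 seed family known in vessels and muscle. The lowest, median and highest values were 1.68, 3.1 and 5.4 CPM in low-RFI and 0.17, 1.51 and 2.84 CPM in high-RFI steers. The groups overlapped, with each low-RFI steer above the high-RFI median, and the log2 fold change was 1.03 (0.11 to 1.96) from 1 to 21 counts per steer. Its unadjusted p was under 0.05 in 6 of the 12 fits without 1 steer, and the log2 fold change of bta-miR-424-3p in these fits ran from 0.70 to 1.33. The 4 other tested miRNAs of the same cluster, bta-miR-424-5p, bta-miR-450a, bta-miR-450b and bta-miR-542-5p, had log2 fold changes of 0.12 to 0.26, none with an unadjusted p under 0.05.

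Of the 3 miRNAs called lower in low-RFI steers, bta-miR-507-3p had the highest level of any called miRNA. From lowest over median to highest, low-RFI steers had 6.24, 16.2 and 28.4 CPM and high-RFI steers 21.5, 27.4 and 64.6 CPM. Each high-RFI steer lay above the low-RFI median, and the groups overlapped between 21.5 and 28.4 CPM. The log2 fold change was -1.07 (-1.81 to -0.33), with an adjusted p of 0.76 by edgeR and between 26 and 281 counts per steer. It was called under all of the 10 other settings of test, normalization, filter, steers and sire that could give it a value, and without any 1 of the 12 steers its unadjusted p stayed between 0.00302 and 0.0296.

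bta-miR-24 in these files is the minor arm of mir-24, whose major arm bta-miR-24-3p acts with miR-23 and miR-27 from the same clusters. Low-RFI steers had 0.436, 1.25 and 1.75 CPM as lowest, median and highest value, and high-RFI steers 1.75, 2.23 and 3.59 CPM. The ranges barely touched, the highest low-RFI steer lying just above the lowest high-RFI steer. The log2 fold change was -0.95 (-1.64 to -0.26), with 1 to 13 counts per steer, and 2 of the low-RFI steers were at or under the floor of 3 counts. The major arm bta-miR-24-3p, at 416 to 547 CPM in low-RFI and 459 to 598 CPM in high-RFI steers, overlapped widely with a log2 fold change of -0.13 (-0.32 to 0.055).

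The third was bta-miR-11985, at -1.33 (-2.40 to -0.25) on the log2 scale. The lowest, median and highest values were 0.814, 1.64 and 5.48 CPM in low-RFI and 1.85, 6.75 and 15.9 CPM in high-RFI steers. The ranges overlapped, high-RFI steer 4 was the highest, and without that steer the log2 fold change was -0.92 with an unadjusted p of 0.0673. Just outside the rule lay bta-miR-27a-5p, the minor arm of mir-27a, at -0.89 with an unadjusted p of 0.0583.

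**Figure D4:**
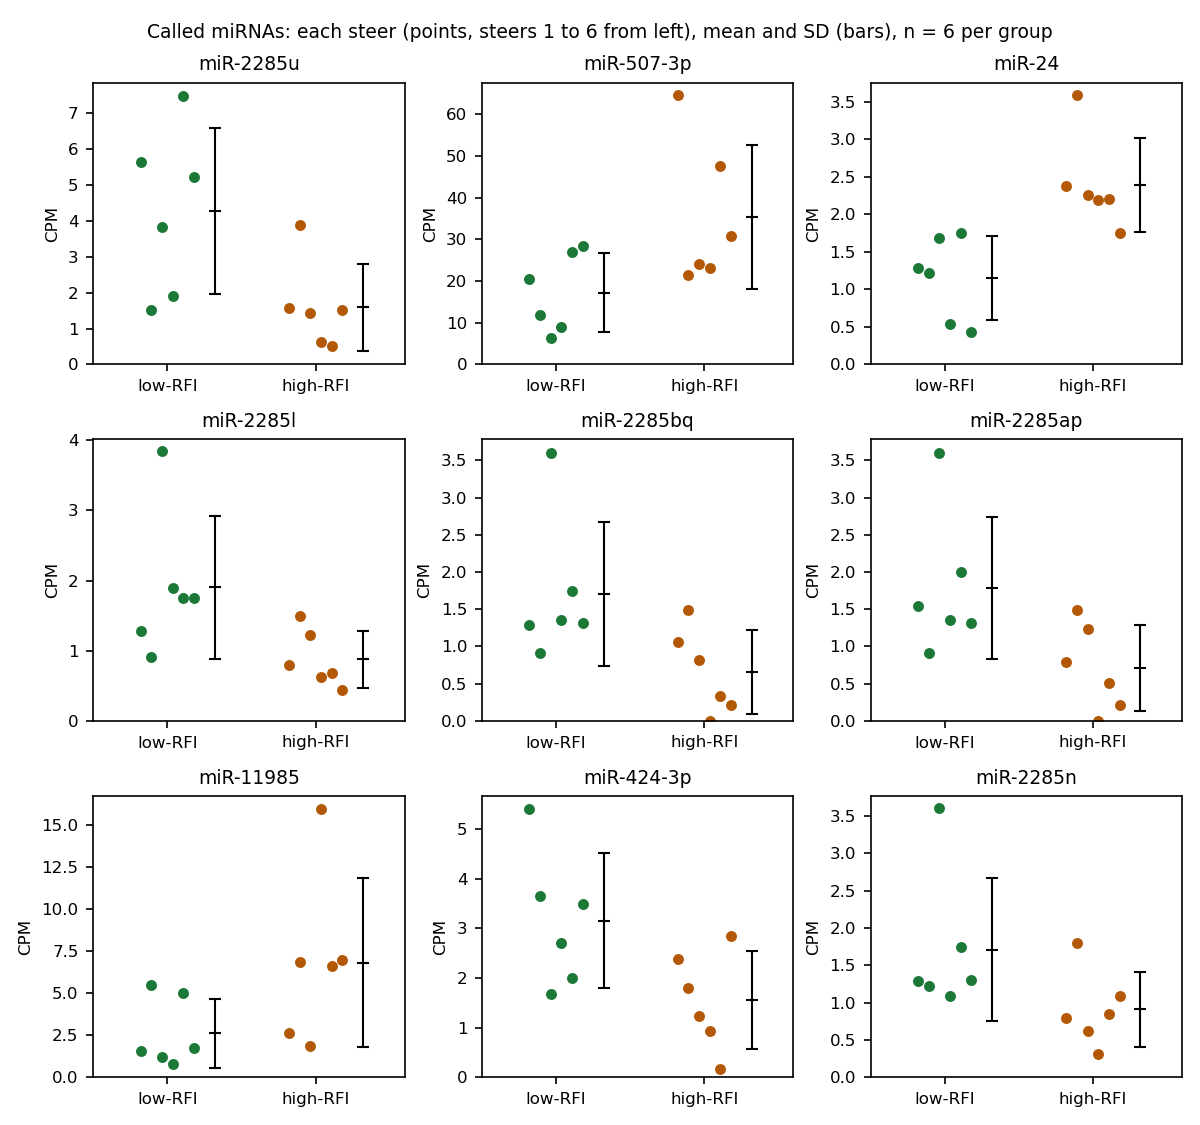
CPM of the 9 called miRNAs in each steer (points, steers 1 to 6 from left within a group) with the mean and SD beside them (n = 6 per group), each panel on its own linear axis from 0. Low-RFI steer 3 is the highest point of miR-2285l, miR-2285bq, miR-2285ap and miR-2285n, and the groups overlap in all 9 panels.

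A further 4 miRNAs had an unadjusted p under 0.05 with a smaller fold change. bta-miR-142-5p, known from leukocytes, ran from 3476 to 4425 CPM in low-RFI and from 3011 to 3536 CPM in high-RFI steers, with a log2 fold change of 0.17 (0.015 to 0.33). Each low-RFI steer lay above the high-RFI median, and low-RFI steer 1 stood above the others at 4425 CPM. The result rested on single steers: without that steer the log2 fold change of bta-miR-142-5p was 0.095 with an unadjusted p of 0.164, and the p was under 0.05 in 5 of the 12 fits without 1 steer and in 3 of 10 other settings. Its opposite arm bta-miR-142-3p had 0.06 (-0.15 to 0.27). bta-miR-195, which shares the seed of miR-15 and miR-16, had -0.22 (-0.43 to -0.0074), bta-miR-296-3p 0.44 (0.041 to 0.85) and bta-miR-6521 -0.55 (-1.07 to -0.019). Of the 12 fits without 1 steer, bta-miR-195 and bta-miR-296-3p had an unadjusted p under 0.05 in 6 each and bta-miR-6521 in 5. The adjusted p of each of these 4 by edgeR was 0.969.

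Among the 107 miRNAs at 100 CPM or more, the 10 with the smallest p included 6 not yet given. bta-miR-532 had a log2 fold change of 0.19 (-0.012 to 0.39), bta-miR-1468 0.19 (-0.036 to 0.41) and bta-miR-320a 0.13 (-0.028 to 0.28). The inflammation-linked miRNAs bta-miR-146a and bta-miR-146b had -0.20 (-0.44 to 0.044) and -0.31 (-0.66 to 0.052). bta-miR-10b had -0.37 (-0.78 to 0.053). All of their 95% intervals held 0. Of the 12 fits without 1 steer, bta-miR-532, bta-miR-10b and bta-miR-146b had an unadjusted p under 0.05 in 2 each, and bta-miR-1468 and bta-miR-146a in 1 each.

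When counts were summed by seed, 280 seed families were tested and 8 called (2.86%), with none at an adjusted p of 0.05 and the smallest at 0.693. Of the 8 called families, 6 have 1 member and so repeat the test of a single miRNA. The family with the seed AAACCCG (bta-miR-2285at, bta-miR-2285bq, bta-miR-2285cz and bta-miR-2285l) had the smallest p. It sums bta-miR-2285l and bta-miR-2285bq, whose near-equal counts are described above, and is not independent of those calls. Its values ran from 2.32 to 9.8 CPM in low-RFI and from 0.926 to 3.97 CPM in high-RFI steers, with a log2 fold change of 1.27 (0.49 to 2.05). The next 4 were the seeds of bta-miR-507-3p, bta-miR-24, bta-miR-2285u with bta-miR-2285bm, and bta-miR-2285ap, at log2 fold changes of -1.07, -0.96, 0.88 and 1.34. Of the 71 families at 100 CPM or more none was called, and for 68 the 95% interval lay within a 1.5-fold change.

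The large conserved families showed the same small differences. The 9 let-7 miRNAs, all tested, had log2 fold changes of -0.087 to 0.062 and a median of -0.0058, and none reached an unadjusted p of 0.05. The 6 miR-30 miRNAs ran from -0.057 to 0.18, the 2 tested miR-26 miRNAs from -0.018 to 0.0071 and the 4 miR-29 miRNAs from 0.033 to 0.25, again with none under 0.05. Each of these families had members with opposite signs except miR-29, whose 4 members were all above 0. The tested miRNAs of miR-192, miR-215 and miR-194 were within -0.0078 to 0.089.

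Some families leaned to one sign over small values. All 7 tested miRNAs of the clusters of miR-23, miR-27 and miR-24 had a log2 fold change below 0, with a median of -0.10, but bta-miR-24 was the one with an unadjusted p under 0.05, and the abundant bta-miR-27b stood at -0.015 (-0.20 to 0.17). All 7 of the group of miR-10, miR-99, miR-100 and miR-125 were below 0 too, from -0.37 to -0.0029 with a median of -0.031, and none reached 0.05. Of the 28 tested miRNAs of the imprinted DLK1-DIO3 cluster 21 were below 0, with a median of -0.077 and none at 0.05. Its most abundant members bta-miR-127 and bta-miR-411a had -0.06 (-0.30 to 0.18) and -0.077 (-0.27 to 0.11). In the other direction, 11 of 13 tested miRNAs of the miR-17-92 clusters were above 0, with a median of 0.047 and none at 0.05. The 3 tested miRNAs of the miR-34 and miR-449 family were above 0, at 0.40 to 0.80, with none at 0.05 singly. Summed over the 6 counted miRNAs with their seed, a value chosen after it was seen, they had a log2 fold change of 0.46 (0.017 to 0.90) with an unadjusted p of 0.0427 and an adjusted p of 0.963 by edgeR. The sum ran from 13.5 to 26.7 CPM in low-RFI and from 10.6 to 21.9 CPM in high-RFI steers, and bta-miR-449a ranged from 0.257 to 14.6 CPM in low-RFI to 0.528 to 5 CPM in high-RFI steers. Of the 7 tested miRNAs with the seed of miR-15 and miR-16, 4 were above 0, with a median of 0.065, and bta-miR-195 was the one under 0.05. With library totals in place of TMM, 2 of the 7 miR-23, miR-27 and miR-24 miRNAs and 1 of the 7 miR-10, miR-99, miR-100 and miR-125 miRNAs were above 0. With the sire block described further on, 2 of the 3 miR-34 and miR-449 miRNAs were below 0, as were 6 of the 7 with the seed of miR-15 and miR-16 (median -0.13), 1 of the 4 miR-29 miRNAs and 2 of the 5 of the mir-424 cluster, and 2 of the 7 miR-23, miR-27 and miR-24 miRNAs were above 0. miRNAs of a cluster are cut from common transcripts and are not independent of each other. Over all tested miRNAs, 195 of 373 were above 0.

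miRNAs known for metabolic roles gave no call. Of 13 linked to lipid and cholesterol metabolism, all were tested, none had an unadjusted p under 0.05, and 7 were above 0 with a median of 0.021. Among them, bta-miR-33a and bta-miR-33b, which are encoded within the SREBF genes and target cholesterol export, had -0.14 (-0.77 to 0.50) and 0.19 (-0.13 to 0.50), intervals wider than that of bta-miR-122. Of 12 counted miRNAs linked to insulin and glucose none had an unadjusted p under 0.05, and 9 were above 0 with a median of 0.037. bta-miR-103 and bta-miR-107, known for insulin sensitivity, had 0.095 (-0.052 to 0.24) and 0.038 (-0.12 to 0.19).

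The tissue label was checked against cell type miRNAs. The 5 hepatocyte miRNAs summed to 345799 to 420936 CPM in low-RFI and 348612 to 398550 CPM in high-RFI steers. Most of this sum was bta-miR-192 and bta-miR-148a, with means of 235546 and 130577 CPM over the 12 steers. bta-miR-122 and bta-miR-885 had means of 7513 and 31.3 CPM. The mesenchymal sum given below was likewise mostly bta-miR-143, with a mean of 159017 CPM. Muscle and neural miRNAs were low: bta-miR-206 had no count in any of the 12 steers and bta-miR-124a at most 0.24 CPM, though bta-miR-133a had 25.7 to 49.3 CPM and 21.8 to 38 CPM. The muscle list summed to 27.9 to 55.7 CPM and 25.1 to 41.4 CPM, and the neural list to 4.56 to 9.13 CPM and 6.11 to 10.8 CPM. The summed level overlapped between the groups for each of the 8 cell type lists. For leukocyte miRNAs it was 4760 to 5589 CPM in low-RFI and 4043 to 5081 CPM in high-RFI steers, for endothelial 14604 to 19373 and 15327 to 18082 CPM, for mesenchymal 121968 to 170039 and 150759 to 196487 CPM, and for biliary 145 to 258 and 188 to 285 CPM. Apart from bta-miR-142-5p, 1 of 6 leukocyte miRNAs, none of these markers had an unadjusted p under 0.05. Their part in the results was not tested.

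Where both arms of a hairpin were expressed, the ratio of the arms within a steer was compared, which does not depend on library totals. Of 30 hairpins, 2 had an exact two-sided permutation p under 0.05 (6.67%), and none an adjusted p under 0.05. Both involve minor arms called above, so the 2 are not independent of those calls. The ratio of bta-miR-24 to bta-miR-24-3p was -8.65 ± 0.78 in low-RFI and -7.74 ± 0.27 in high-RFI steers on the log2 scale (SD, 6 steers each). The difference of -0.91 had an exact permutation p of 0.00433 and an adjusted p of 0.13 over the 30. The ratio of bta-miR-424-3p to bta-miR-424-5p was -2.49 ± 0.34 and -3.58 ± 1.07 (SD, 6 steers each), a difference of 1.09 with an exact permutation p of 0.0173 and an adjusted p of 0.26. High-RFI steer 5, with 1 count of bta-miR-424-3p, was the lowest. The next hairpins were mir-423, mir-27a and mir-345, with exact permutation p of 0.0519, 0.0628 and 0.0736. Without low-RFI steer 4, 6 hairpins in place of 2 had an exact permutation p under 0.05, these 3 among them.

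**Figure D5:**
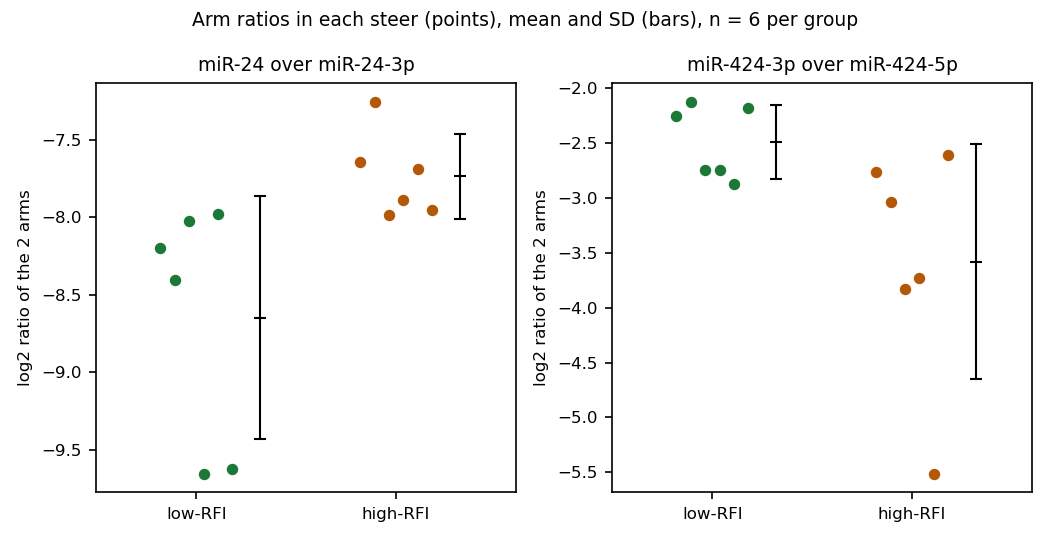
log2 ratio of the minor to the major arm of mir-24 and mir-424 in each steer (points) with the mean and SD (n = 6 per group). The ratio of miR-24 lies lower in low-RFI steers and that of miR-424-3p higher, and 1 high-RFI steer lies far below the others for miR-424-3p.

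Steers of 1 sire are half-sibs, so the comparison was repeated with sire as a block, which rests on the 5 steers of the 2 sires with progeny in both groups. It called 11 miRNAs, 2 higher and 9 lower, of which bta-miR-24 and bta-miR-507-3p were the 2 also called without the block, and none reached an adjusted p of 0.05. bta-miR-24 then had a log2 fold change of -2.29 (unadjusted p 0.00524) and bta-miR-507-3p -1.32 (0.0316). The low-RFI steers of the shared sires were low-RFI steers 4 and 6, both under the floor of 3 counts for bta-miR-24. Their log2 ratios of bta-miR-24 to bta-miR-24-3p, -9.66 and -9.62, lay below those of the other low-RFI steers, -8.40 to -7.98. How far the larger fold of bta-miR-24 with the block rests on these low counts was not tested. The other 7 called miRNAs lost the call with folds that in part stayed as large. bta-miR-11985 had -1.82 (0.0595), bta-miR-424-3p 1.12 (0.198), bta-miR-2285u 1.02 (0.167) and bta-miR-2285l 0.98 (0.218). bta-miR-2285ap, bta-miR-2285bq and bta-miR-2285n had 0.63, 0.53 and 0.24 (0.513, 0.576 and 0.769). bta-miR-486 had 0.78 (unadjusted p 0.00668, adjusted p 0.71), and was the one of the 20 most abundant miRNAs called in this fit. Another 3 of the 20 had an unadjusted p under 0.05 with a fold under 1.5, bta-miR-148a at 0.25 (0.0284), bta-miR-30a-5p at 0.29 (0.0193) and bta-miR-101 at 0.29 (0.0287), each with an adjusted p of 0.71 by edgeR. Without low-RFI steer 6, and without the block, these 3 had log2 fold changes of -0.079, -0.0998 and -0.076. How far their values with the block rest on that steer was not tested.

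Whether the Angus difference departs from that in the other breeds was tested in a fit of the 36 grouped steers, over 426 miRNAs. None of them reached an adjusted p of 0.05, and 15 had an unadjusted p under 0.05 (3.52%). bta-miR-2285u came nearest. Its log2 fold change in that fit was 1.45 in Angus, -1.13 in Charolais and 0.0912 in Kinsella Composite steers, and the Angus value differed from the mean of the other two by 1.97 (0.99 to 2.94) with an adjusted p of 0.0959 by edgeR. The next 4, bta-miR-2285bq, bta-miR-2284c, bta-miR-2285l and bta-miR-2284v, differed by 1.88, 2.61, 1.498 and -0.73, each with an adjusted p of 0.997. Of these, bta-miR-2284c was below the filter in the Angus steers alone, at 0 to 2.64 CPM in low-RFI and 0 to 1.23 CPM in high-RFI steers. bta-miR-24 had -0.98 in Angus, 0.00527 in Charolais and 0.0282 in Kinsella Composite steers, and the difference of Angus from the others had the same adjusted p. The Charolais and Kinsella Composite steers differ from the Angus steers in breed and sires. By the study's account the breeds also differed on average in slaughter age and in reads kept per library. These cannot be told apart here.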

How the data were processed

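Small RNA libraries of 12 Angus liver samples were analysed, 6 low-RFI and 6 high-RFI by label, with 24 grouped steers of the other breeds in 1 fit. The deposited values are raw read counts per pair of mature miRNA and precursor. The authors trimmed reads with cutadapt 1.16, kept lengths of 15 to 28 bases, removed reads of other small RNAs, and counted with miRDeep2 (Bowtie 1.1.1) against miRBase release 22 and UMD3.1, without normalization. A read that matches several near-identical miRNAs may be counted for each, which can tie their counts together.

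Counts were averaged over precursors, rounded and tested with edgeR 4.0.16 (R 4.3.3, limma 3.58.1), by quasi-likelihood F tests with TMM normalization. The filter was 1 CPM in at least 6 steers. A call took an unadjusted p under 0.05 and a fold above 1.5, after the study, with Benjamini-Hochberg adjustment beside it. Exact tests used log2 CPM with 0.5 added. Arm ratios used 0.5 added to each arm, where both arms passed the filter. DESeq2 1.42.0 was used in 1 alternative, and Python 3.11.15 (numpy 2.4.6, pandas 2.3.3, matplotlib 3.10.9) for the rest. The fits were tested on simulated data.

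Named were the 20 most abundant miRNAs, each with an unadjusted p under 0.05, the 10 smallest p at 100 CPM or more, the 5 smallest p among seed families, arm ratios and differences from the other breeds, the 5 largest and 5 smallest within-group SDs at 100 CPM or more, and the defining members of 24 lists of families, roles and cell types. The steers, lists, rule and tests were chosen with earlier results of these data known. Steers numbered within a group are not paired. The labels do not say that steers were sampled apart by day or batch. Alternatives changed the test, normalization, filter, handling of precursors, depth, steers and sire, and predicted miRNAs were not analysed here.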

Additional observations from a re-analysis of the deposited data

Results flagged for a closer look

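Within the RFI groups, 13 values of 94 groups of 6 steers stood apart from the other 5 by Dixon's criterion, 8 in low-RFI and 5 in high-RFI steers. For independent, normally distributed values the criterion flags about 1 in 20 groups by chance. Most values here were CPM without log, of miRNAs chosen by level or p. Some were low counts and some came from near-identical miRNAs, so the 13 cannot be set against that rate. Low-RFI steer 6, which had the fewest counts of the 12, stood apart in 4 abundant miRNAs. It had bta-miR-27b at 22572 CPM (the other 5 steers 30074 to 32422), bta-miR-101 at 21345 CPM (the other 5 steers 13961 to 16302), bta-miR-30e-5p at 11487 CPM (the other 5 steers 8295 to 9486) and bta-miR-10b at 3239 CPM (the other 5 steers 1455 to 2115). Low-RFI steer 3 stood apart in 3 near-identical miR-2285 miRNAs, with bta-miR-2285l at 3.84 CPM (the other 5 steers 0.913 to 1.9), bta-miR-2285bq at 3.6 CPM (the other 5 steers 0.913 to 1.75) and bta-miR-2285n at 3.6 CPM (the other 5 steers 1.09 to 1.75). Low-RFI steer 1 had bta-miR-142-5p at 4425 CPM (the other 5 steers 3476 to 3685).

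Among high-RFI steers, steer 4 had bta-miR-486 at 12020 CPM (the other 5 steers 5291 to 7813) and bta-miR-11985 at 15.9 CPM (the other 5 steers 1.85 to 6.98). Steer 2 had bta-miR-2285u at 3.89 CPM (the other 5 steers 0.509 to 1.58) and bta-miR-24 at 3.59 CPM (the other 5 steers 1.75 to 2.37). Steer 6 had bta-miR-146b at 143 CPM (the other 5 steers 225 to 260.2). Why these steers differ was not tested.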

How the results depend on the processing

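No adjusted p for an RFI difference in Angus, by edgeR or DESeq2, fell below 0.05 under any setting tried (14 miRNAs had an unadjusted p under 0.05 as reported). The count of 9 called miRNAs was 1 at 10 counts or more in every steer, 20 without a filter, 4 without the miR-2285 miRNAs (chosen after seeing the data) and 5 to 11 without single steers, 5 being the count without low-RFI steer 3. The abundant miRNAs gave 1 call with sire as a block and otherwise 0. Called seed families were 14 without a filter and 6 to 10 without single steers. Arm ratios under an exact p of 0.05 were 0 at 10 counts or more of both arms and 2 to 6 without single steers. The test against other breeds gave 1 at an adjusted p under 0.05 with DESeq2, 1 with the likelihood-ratio test and 0 to 1 without single steers (1 without low-RFI steer 2, low-RFI steer 4 or high-RFI steer 2). The difference of library totals (low-RFI minus high-RFI) ran from -981549 to -475863 counts and that of the share held by the 10 most abundant miRNAs from -0.614 to -0.0997 percentage points without single steers. The cause of these shifts was not tested, beyond the fewer or more miRNAs and steers that each setting takes in.

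Of 504 values under 15 other settings, 31 changed sign, all of them log2 fold changes of abundant miRNAs that were within 0.0475 of 0 to begin with, 37 no longer passed their threshold, 15 of these with sire as a block, and 11 newly passed an unadjusted p of 0.05, 4 with sire as a block, 5 without a filter, 1 with library totals and 1 thinned. The values that changed sign follow by setting. Without a filter on low counts these were miR-192 (-0.0021), miR-148a (-0.0086), miR-30a-5p (-0.010), miR-21-5p (-0.00056), miR-191 (-0.0053), miR-181a (-0.025), miR-26b (-0.022). With precursor counts summed these were miR-192 (-0.00015), miR-148a (-0.0052), miR-30a-5p (-0.0082), miR-191 (-0.0026), miR-181a (-0.017), miR-26b (-0.023). With sire as a block these were miR-192 (-0.0017), miR-21-5p (-0.15), miR-215 (0.16), miR-122 (0.068), miR-26b (-0.16). At 10 counts or more in every steer these were miR-148a (-0.0017), miR-30a-5p (-0.0030), miR-181a (-0.015), miR-26b (-0.016). In the fit of 36 steers these were miR-30a-5p (-0.0020), miR-181a (-0.0090), miR-26b (-0.013). With library totals these were miR-27b (0.0030). With counts thinned to equal depth these were miR-215 (0.00097). With DESeq2 these were miR-181a (-0.0054), miR-26b (-0.0058). With DESeq2 size factors in edgeR these were miR-181a (-0.0054), miR-26b (-0.0058). Without single steers the log2 fold changes that changed sign ran as miR-192 -0.030 to 0.071, miR-148a -0.079 to 0.063, miR-30a-5p -0.0998 to 0.071, miR-27b -0.071 to 0.028, miR-101 -0.076 to 0.083, miR-126-5p -0.0065 to 0.094, miR-21-5p -0.042 to 0.074, miR-191 -0.026 to 0.045, miR-30e-5p -0.019 to 0.10, miR-215 -0.083 to 0.029, miR-100 -0.076 to 0.033, miR-181a -0.076 to 0.055, miR-26b -0.058 to 0.084. No steer of one group is paired with a steer of the other by number in the labels, and the within-sire comparison is the fit with sire as a block. What part depth has in the wider spread under 10 CPM was not tested, other than by thinning to equal depth, which gave 9 calls.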

Other observations

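The abundant liver miRNAs differed in how much they varied among steers of the same RFI group. Of the 107 miRNAs at 100 CPM or more, bta-let-7g had the smallest within-group SD, 0.0568 on the log2 scale, followed by bta-miR-191 (0.0673), bta-miR-2284x (0.0719), bta-miR-30d (0.0735) and bta-let-7a-5p (0.0772). The largest were those of bta-miR-182 (0.50), bta-miR-10225a (0.49), the erythroid bta-miR-451 (0.45) and bta-miR-486 (0.43), and bta-miR-10b (0.43), against a median of 0.16. bta-miR-182 ran from 139 to 470.2 CPM in low-RFI and from 255 to 457 CPM in high-RFI steers, and bta-miR-2284x from 466 to 551 and 478 to 531 CPM.

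The 8 Angus steers without an RFI group were not used in any comparison. Per the study's methods, the profiled steers of each breed were those of highest and lowest RFI, in equal numbers. With 6 low-RFI and 6 high-RFI steers grouped, the 8 by that account hold low-RFI and high-RFI animals in equal numbers. The labels do not tell them apart. The values of the 8, as CPM of library totals without TMM, are given beside those of the grouped steers on the same scale. bta-miR-24 had 1.91, 2.67 and 4.66 CPM as lowest, median and highest value. Grouped low-RFI steers ran from 0.403 to 1.7 and grouped high-RFI steers from 1.71 to 3.63 CPM. Each of the 8 lay above each grouped low-RFI steer. By the study's account of the choice, the low-RFI animals among the 8 thus all lay above the grouped low-RFI range. bta-miR-507-3p had 9.65, 35.9 and 55.5 CPM, where the grouped steers ran from 6.33 to 26.2 (low-RFI) and 21.8 to 60.9 CPM (high-RFI). bta-miR-2285u had 0.811, 1.35 and 5.33 CPM, where the grouped steers ran from 1.62 to 7.23 and 0.526 to 3.93 CPM. bta-miR-2285ce had 22.5, 30.8 and 42.1 CPM, a range that overlaps both groups, 32.6 to 42.3 CPM in low-RFI and 25.9 to 34 CPM in high-RFI steers.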
